A study of Mus musculus with 8 samples.

Results

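Orexin and melanin-concentrating hormone (MCH) are neuropeptides of the lateral hypothalamus, and the genes described here are those for both peptides and their receptors in the medial prefrontal cortex (mPFC). They were taken by gene name among the non-control spots of the arrays: Hcrt (the orexin precursor), Pmch (the MCH precursor), Hcrtr1 and Hcrtr2 (the orexin receptors) and Mchr1 (the MCH receptor of the mouse). These 5 genes, of 34797 distinct gene names, were represented by 7 probes of 55681. One single-colour Agilent array was hybridised per animal, for 8 adult male mice of the C3H/Hen strain in all. The 4 maternal separation (MS) animals, labelled Stress, were removed from the dam daily between postnatal days 2 and 14, and the dam itself was stressed meanwhile. The 4 control animals, labelled Ctrl, stayed with theirs. No transgene or drug treatment is described for either group, and all animals were weaned at postnatal day 21, trained in operant cages for palatable food as adults, and killed after a fast. Separation of the pups and stress of the dam were applied together and cannot be told apart. Each animal is given by its group and label number. The comparison asks whether the stress of early life left a difference in these genes in the adult cortex.

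Neurons that make orexin or MCH have their cell bodies in the lateral hypothalamus and neighbouring areas and send axons over most of the brain, including the prefrontal cortex. Orexin neurons promote wakefulness and reward seeking, and MCH neurons are active in sleep and favour feeding. Orexin A binds both orexin receptors, orexin B prefers HCRTR2, and both receptors signal mainly through Gq proteins, phospholipase C and calcium. MCHR1 signals mainly through Gi/o proteins and sits on the primary cilium of many neurons. The receptors are made by cortical cells, whereas both peptides are made chiefly in the hypothalamus.

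The probes are shown because the 2 Hcrt probes differed in detection, as given below, and the 2 Hcrtr1 probes overlap. Whether the place of binding matters for detection was not tested. Each is 60 bases long, and 30 bases are printed for all but Mchr1. Coordinates are those of the array files (build mm9), strands are those of the transcript, and no exon or UTR is assigned because no mm9 annotation was used here. The first Hcrt probe is shown from its base 20 with the polyadenylation hexamer AATAAA in capitals. Capitals in both Hcrtr1 probes mark the part they share.
Hcrt A_55_P2142341, NM_010410, chr11:100623018-100623047, minus strand: ttggtaaatggcAATAAAgacgattctctg
Hcrt A_55_P2110316, ENSMUST00000107360, chr11:100622514-100622543, minus strand: acctacacagagaggtccaatacaagggca
Hcrtr1 A_55_P1963965, NM_198959, chr4:129807499-129807528, minus strand: atgtggccATTCGTTCAGCATGGAGGCCAG
Hcrtr1 A_55_P2155946, NM_198959, chr4:129807491-129807520, minus strand: ATTCGTTCAGCATGGAGGCCAGCAGCCCGG
Hcrtr2 A_51_P380069, NM_198962, chr9:76073829-76073858, minus strand: accaattcttagtcagaacattttattcta
Pmch A_52_P418814, NM_029971, chr10:87555031-87555060, plus strand: tgtctgttttaaaaggacctggttaagata
Mchr1 A_55_P2021146, NM_145132, chr15:81068481-81068540, plus strand: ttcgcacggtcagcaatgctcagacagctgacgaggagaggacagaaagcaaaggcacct
The 2 Hcrt probes lie 463 bases apart and share no run longer than 6 bases. The second one is 3′ of the first and is assigned to an Ensembl transcript alone. The Hcrtr1 probes are shifted by 8 bases and share 52, so they are near-repeats of 1 measurement and not independent evidence.

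All levels are log2 ratios of the background-corrected signal to the 75th percentile on that array, so a level of -1 is a signal at 0.5 of that percentile. Levels of different probes are not compared, because probes differ in how strongly they bind. A spot is called well above background by a flag of the scanner software, and 61.5% (MS 7.6) to 68.9% (control 6.2) of probes had it. The 75th percentile ran from 588 (MS 7.1) to 892 (control 8.4) signal units. With 4 arrays per group, the number of arrays limits the precision. In dissected tissue, fewer cells of a type and less RNA per cell cannot be told apart.

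Both peptide genes and 2 of the 3 receptor genes were measurable in this tissue. Hcrt (probe A_55_P2142341), Pmch, Mchr1 and both Hcrtr1 probes were well above background on 8 of 8 arrays, with spot errors between 10.0% and 11.9% of the signal. Hcrtr2 was well above background in MS 5.3 alone, at a level of -5.66. Its levels were -7.76, -7.08, -7.12 and -6.77 in control 6.2, 8.5, 8.2 and 8.4, and -6.74, -7.81 and -6.18 in MS 7.1, 7.2 and 7.6. The groups overlapped and no fold is given, since the MS mean of -6.60 lay below the bound of -5.95 that the dimmest detectable probes set for the controls. The second Hcrt probe was well above background in control 6.2 alone, at -5.92, and ran from -7.85 to -5.91 over all animals. So 5 probes of 4 genes entered the test between the groups, while Hcrtr2 and the second Hcrt probe did not.

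**Figure D1:**
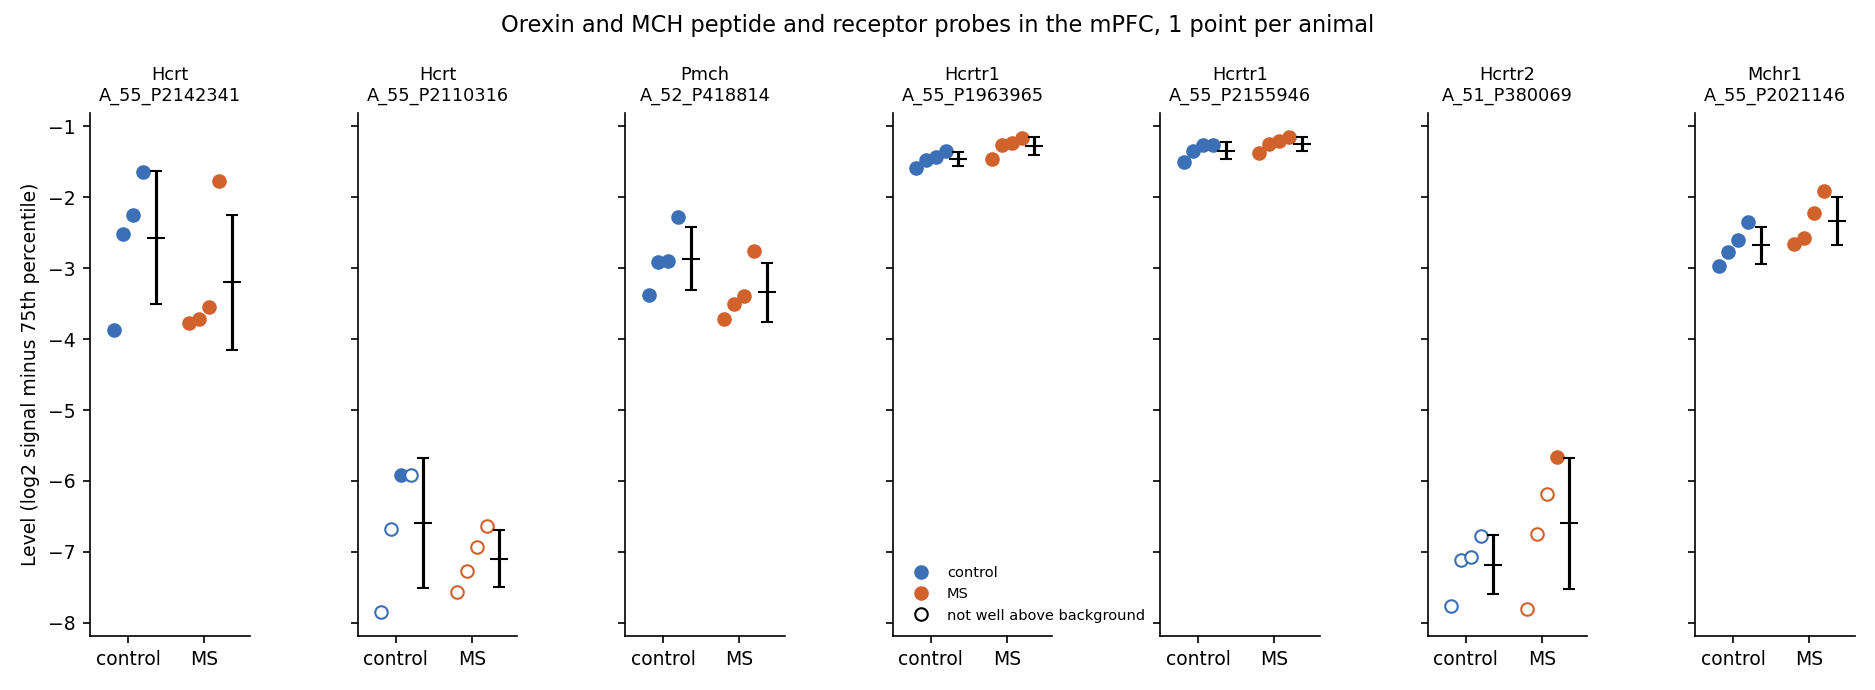
Level of each probe (log2 signal minus the 75th percentile of the array) in the 4 control and the 4 MS animals, 1 point per animal, with the mean and SD beside the points. Open points were not well above background. Heights are not comparable between probes. Hcrt spans from -3.87 to -1.64 within the controls, whereas both Hcrtr1 probes vary little.

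None of the 4 tested genes differed between MS and control after adjustment. Hcrt and Pmch had lower means in MS and Hcrtr1 and Mchr1 higher means, and every interval held 0. In limma with Benjamini-Hochberg adjustment over 34073 probes, each of the 5 probes had an adjusted p of 0.9996. No probe on the whole array was called at an adjusted p under 0.05 (0% of the probes tested). At an unadjusted p under 0.05 limma called 815 probes (2.39%, of which 1.19% higher and 1.2% lower in MS), and 0 of the 5 member probes were among them. The 2 groups did not overlap for 486 probes (1.43%), and overlapped for all 5 member probes.

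**Figure D2:**
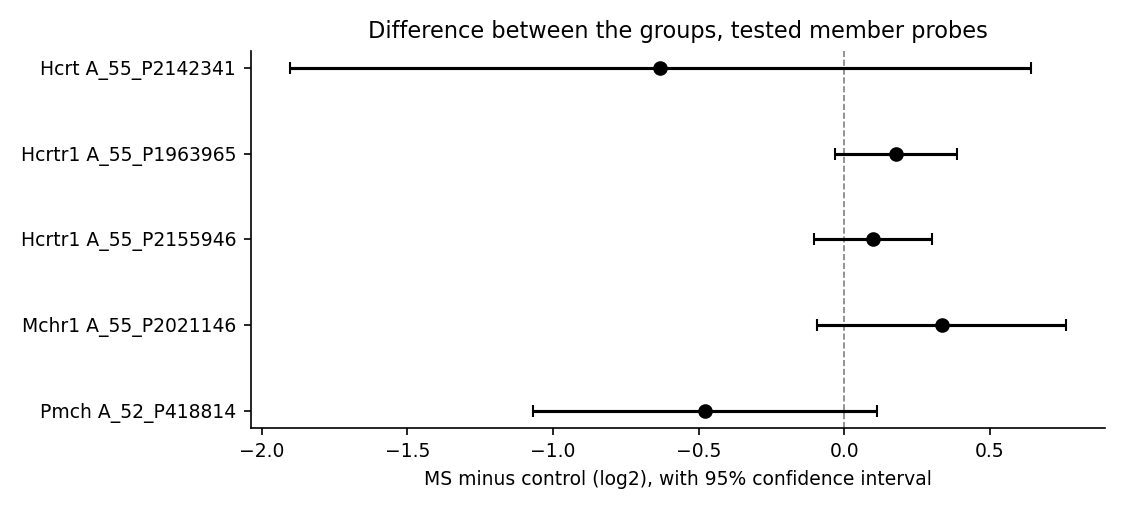
Difference between the group means (MS minus control, log2) of the 5 tested probes, with the 95% confidence interval of limma as bars. All 5 intervals cross 0, and that of Hcrt, from -1.90 to 0.64, is the widest.

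Hcrt encodes the precursor that is cut into orexin A and orexin B. Its levels in control 6.2, 8.5, 8.2 and 8.4 were -2.52, -3.87, -2.25 and -1.64. In MS 5.3, 7.1, 7.2 and 7.6 they were -3.77, -1.77, -3.72 and -3.55. In falling order the animals were control 8.4, MS 7.1, control 8.2, control 6.2, MS 7.6, MS 7.2, MS 5.3 and control 8.5, so that 3 controls and 1 MS animal were the 4 highest. The widest step in this order, from control 6.2 to MS 7.6, was 1.03 log2, or 2.04-fold. The error of the spots, which leaves out the variation between animals, dissections and labellings, was 0.15 to 0.17 log2, and 5 of the 7 steps were within 2 combined errors of their spots. The processed signal itself ran from 46.3 units in control 8.5 to 287 in control 8.4, against a local background of 26 to 31.

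The mean of Hcrt was -2.57 ± 0.94 in control and -3.20 ± 0.96 in MS (SD, n = 4 each). The difference was -0.63 log2 (SE 0.56, 95% confidence interval -1.90 to 0.64, limma unadjusted p = 0.289), or a ratio of 0.645. With normexp background correction, which adds an offset of 50 units and so shrinks differences of dim probes, it was -0.41. Without MS 7.1, the highest MS animal, it was -1.11 (limma unadjusted p = 0.0438, adjusted p = 0.9997). Without control 8.5 it was -1.06, and without control 8.4 it was -0.32. The sign differed between the rows of the slide, each row holding 2 animals of each group: MS minus control was 0.42 in the first row and -1.69 in the second. The first row held both control 8.5, the lowest animal, and MS 7.1, the highest of MS. A part of the row itself was not tested.

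Pmch encodes the precursor of MCH. Its levels in control 6.2, 8.5, 8.2 and 8.4 were -2.91, -3.37, -2.28 and -2.90. In MS 5.3, 7.1, 7.2 and 7.6 they were -3.71, -2.76, -3.40 and -3.50. The 4 highest animals were also the 4 highest for Hcrt, although their order differed, with control 8.2 highest. The widest steps in the order were those below control 8.2 (0.48 log2) and from control 6.2 to control 8.5 (0.46 log2). The means were -2.86 ± 0.45 in control and -3.34 ± 0.41 in MS (SD, n = 4 each).

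The difference of Pmch was -0.48 log2 (SE 0.26, interval -1.07 to 0.11, limma unadjusted p = 0.1002), or a ratio of 0.718. It was -0.25 with normexp background correction, whose offset shrinks differences of dim probes. It was -0.67 without MS 7.1 (limma unadjusted p = 0.0222, adjusted p = 0.9997), -0.65 without control 8.5 (limma unadjusted p = 0.0341, adjusted p = 0.949) and -0.28 without control 8.2. Within the first slide row it was -0.09 and within the second -0.86. Pmch is the sole member whose gene overlaps another gene in RefSeq, Parpbp, a gene of DNA repair. The Parpbp probe (chr10:87554819-87554878, minus strand) ends 152 bases before the Pmch probe and binds the opposite strand. Parpbp was well above background in control 8.2 alone, at -2.43, the animal with the highest Pmch level, and ranged from -8.07 to -6.14 in the remaining 7. Parpbp was looked up because of its position, and its part in the Pmch value of control 8.2 was not tested.

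Oxt and Avp, named after their values were seen out of a list of 20 hypothalamic genes, were high in 3 of the 4 animals with the highest Hcrt and Pmch levels. Oxt, the gene for oxytocin, reached -1.49 (control 8.4), -1.36 (MS 7.1) and -1.17 (control 8.2), while the remaining 5 animals ranged from -3.83 to -3.19. Avp, the gene for vasopressin, was at -2.04, -1.26 and -0.89 in the same 3 animals and between -5.90 and -3.37 in the others, with MS 7.6 not well above background. Control 6.2, also among the 4 highest for Hcrt and Pmch, was at -3.19 for Oxt and -3.80 for Avp, and so did not stand with these 3.

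**Figure D3:**
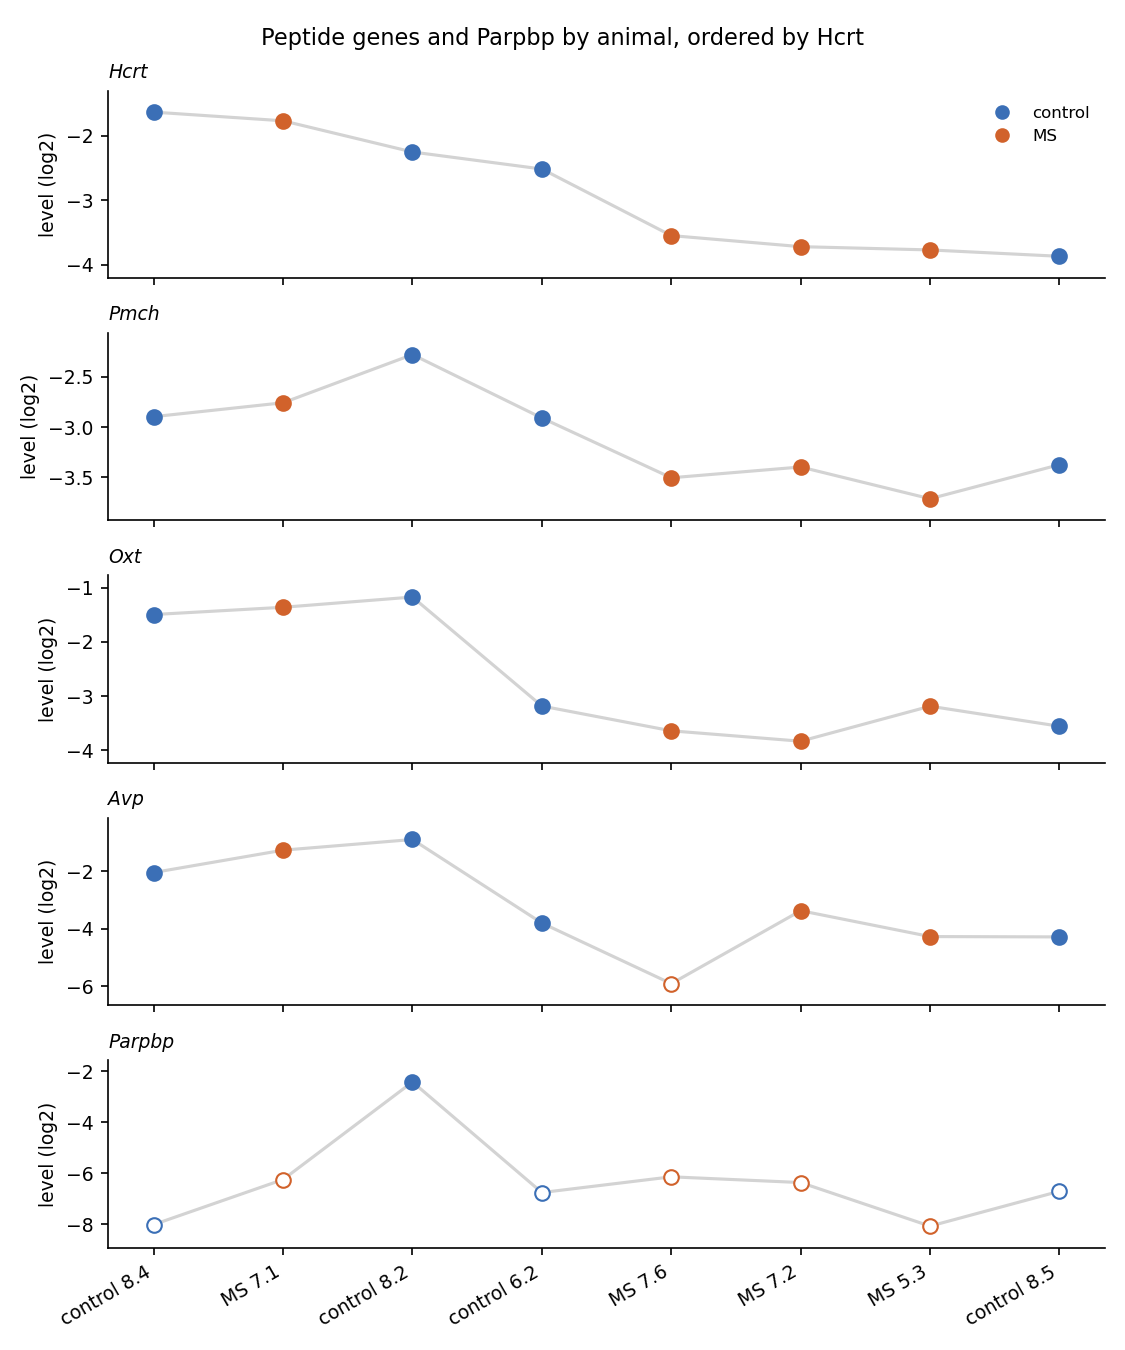
Level (log2 signal minus the 75th percentile of the array) of Hcrt, Pmch, Oxt, Avp and Parpbp in each animal, in the order of Hcrt, with a separate axis for each gene. Open points were not well above background. Control 8.4, MS 7.1 and control 8.2 are the 3 highest for Hcrt, Oxt and Avp, and Parpbp is high in control 8.2 alone.

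Other genes of the hypothalamic list were at background or varied in another way. Of its 20 genes, 11 passed the background flag on all 8 arrays and 6 on none. Those 6 were the developmental regulators Sim1, Otp, Nkx2-1, Hmx2, Hmx3 and Fezf1. Agrp, the feeding peptide of the arcuate nucleus, was lowest in control 8.4 (-4.14) and highest in control 6.2 (-3.55). Pomc, the melanocortin precursor, was highest in control 6.2 (1.19) and MS 7.6 (0.997). Trh, the thyrotropin-releasing hormone gene, was highest in control 8.4 (2.51), MS 7.6 (1.23) and control 8.5 (-0.06). These animals also had the highest scores for olfactory bulb markers, given below. Trh stood at -1.39 in MS 7.1 and -1.70 in control 8.2. Ghrh, the gene for growth hormone-releasing hormone, was highest in MS 7.6 (-2.83). The log2 of the summed level of the list ran from 2.36 to 3.47 in control and from 2.09 to 2.92 in MS. This sum is weighted to the brightest probes, among them Trh in control 8.4 and Trh and Pomc in MS 7.6. It is therefore no measure of hypothalamic content. The part of hypothalamic tissue or fibres in the Hcrt and Pmch levels was not tested.

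The promoters of the peptide genes are shown because these genes were high in the same animals. In RefSeq (GRCm38.p6) the 80 bases before the annotated start of each held 1 TATAAA, given in capitals.
Hcrt, chr11:100762932-100763011, minus strand: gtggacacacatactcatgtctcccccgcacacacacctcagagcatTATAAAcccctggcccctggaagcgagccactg
Pmch, chr10:88090992-88091071, plus strand: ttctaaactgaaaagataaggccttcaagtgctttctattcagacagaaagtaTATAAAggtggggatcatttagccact
The motif began 33 bases before the start of Hcrt and 27 before that of Pmch. Among 32851 promoters of the table, 3.37% held TATAAA on the sense strand of this window. None of the 5 promoter entries of Hcrtr1, Hcrtr2 and Mchr1 held it there, or on either strand of the 300 bases from 250 before the start, where 13.6% of all entries did. Those of Oxt and Avp did not hold it either. These matches describe letters and were not tied to the levels.

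Hcrtr1, the orexin receptor with a preference for orexin A, varied least of the tested members. By probe A_55_P1963965 its levels were -1.43, -1.47, -1.34 and -1.59 in control 6.2, 8.5, 8.2 and 8.4, and -1.46, -1.16, -1.27 and -1.23 in MS 5.3, 7.1, 7.2 and 7.6. By probe A_55_P2155946 they were -1.35, -1.26, -1.26 and -1.51 in the controls and -1.38, -1.15, -1.20 and -1.24 in MS, in the same order of animals. On both probes MS 7.1 was highest and control 8.4 lowest, and MS 5.3 lay among the controls. Every step between neighbouring animals was within 2 combined spot errors. The spot error was about 0.145 log2 throughout and the whole range 0.42 and 0.35 log2, so a step could hardly have passed that limit. The difference between both probes had an SD of 0.07 log2 over the 8 animals.

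The difference of Hcrtr1 was 0.18 log2 on the first probe (SE 0.09, interval -0.03 to 0.39, limma unadjusted p = 0.0882). On the second it was 0.10 (SE 0.09, interval -0.10 to 0.30, limma unadjusted p = 0.299). These are ratios of 1.13 and 1.07, and the intervals end at 1.31-fold and 1.23-fold higher in MS. Without MS 5.3 the first probe gave 0.24 (limma unadjusted p = 0.0311, adjusted p = 0.995), and without control 8.4 the second gave 0.04. Within the slide rows the first probe gave 0.14 and 0.22 and the second 0.04 and 0.16.

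Mchr1 levels in control 6.2, 8.5, 8.2 and 8.4 were -2.78, -2.35, -2.60 and -2.97. In MS 5.3, 7.1, 7.2 and 7.6 they were -2.65, -1.91, -2.23 and -2.57. MS 7.1 and MS 7.2 were highest and control 8.4 lowest, while control 8.5 lay above MS 7.6 and MS 5.3. No step between neighbours passed 2 combined spot errors, although the whole range was 2.08-fold. The means were -2.67 ± 0.26 in control and -2.34 ± 0.34 in MS (SD, n = 4 each). The difference was 0.33 log2 (SE 0.19, interval -0.09 to 0.76, limma unadjusted p = 0.110), or a ratio of 1.26. It was 0.19 without MS 7.1, and 0.28 and 0.39 within the 2 slide rows.

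The peptides varied more between animals than most probes did, and Hcrtr1 less than the median probe. The SD within a group, pooled over both groups, was 0.95 log2 for Hcrt, and 99.2% of the 34073 tested probes had a smaller one. For Pmch it was 0.43 (93.1% smaller) and for Mchr1 0.30 (81.2% smaller). The Hcrtr1 probes had 0.12 (24.4% smaller) and 0.11 (21.4% smaller), against a median of 0.17 over all tested probes.

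**Figure D4:**
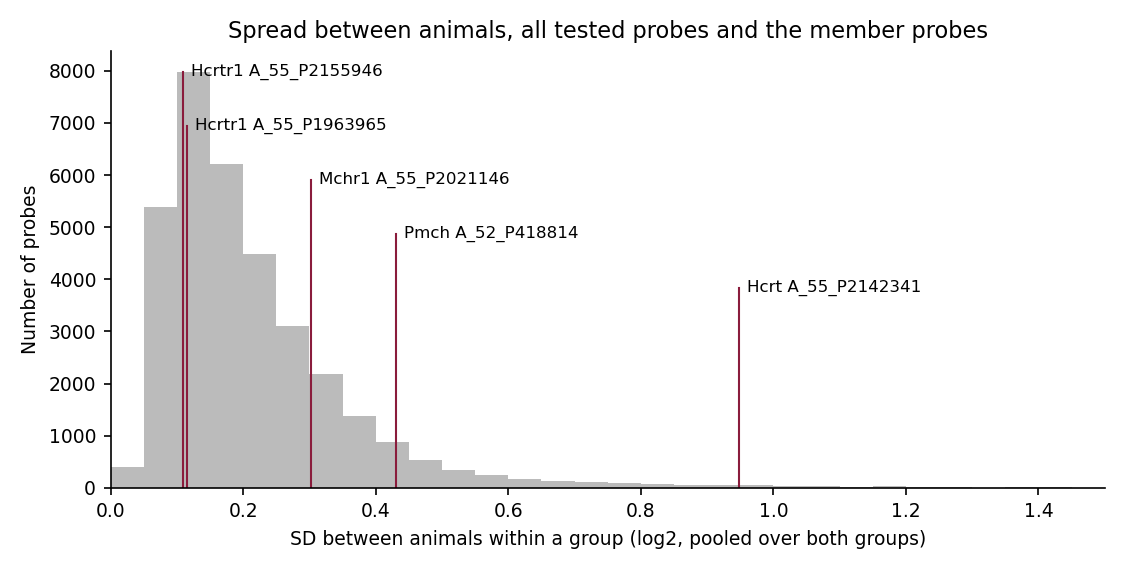
Number of tested probes by their SD between animals within a group (log2, pooled over both groups), with the member probes as lines whose heights carry no meaning. The axis ends at 1.5. Hcrt stands at 0.95, far to the right of the median of 0.17, and both Hcrtr1 probes stand left of it.

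Control 8.4 had the highest Hcrt and the lowest Hcrtr1 and Mchr1, and its markers of other regions also stood apart. Scores are the mean deviation of a list from the average of the 8 arrays, over its genes well above background on every array. The score of control 8.4 for 11 of 14 striatal markers was 1.27 log2, against -0.28 to -0.07 in the other 7 animals. Its score for 8 markers of cortical pyramidal neurons was -0.48, against -0.09 to 0.22. For 10 of 12 olfactory bulb markers control 8.4 scored 2.26, MS 7.6 scored 1.12 and control 8.5 scored 0.69, and the other 5 scored -0.59 or lower. Neither MS 7.6 nor control 8.5 was among the 4 highest for Hcrt. The log2 of the summed level of the bulb list ran from 1.96 to 5.47 in control and from 1.97 to 4.20 in MS, that of the striatal list from 4.89 to 6.46 and from 4.93 to 5.21, and that of the pyramidal list from 6.15 to 6.67 and from 6.57 to 6.78. These sums too are weighted to the brightest probes of each list. The striatal marker Isl1 was well above background in control 8.4 alone, at -4.29, and Ido1 on no array. Without control 8.4, control 8.5 and MS 7.6 the differences were -0.70 for Hcrt, -0.70 for Pmch, 0.42 for Mchr1, and 0.09 and 0.06 for the Hcrtr1 probes, and limma gave no unadjusted p under 0.05 for them.

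The genes whose profile over the 8 arrays was most like that of each member were taken from 22636 candidates, as a description. Among so many candidates, unrelated genes can also reach a high correlation over 8 arrays, so no shared role is read from them. The values without 2 arrays reuse arrays on which the genes were picked and are no separate check. All arrays share 1 slide. The 2 arrays farthest from the median were control 8.4 and MS 7.1 for Hcrt, Mchr1 and the first Hcrtr1 probe. They were control 8.2 and MS 5.3 for Pmch, and control 8.4 and MS 5.3 for the second Hcrtr1 probe. For Hcrt they were Ppnr (Pearson r = 0.95, and 0.90 without the 2 arrays farthest from the median of Hcrt), Nr2f2 (0.95 and 0.88), a nuclear receptor of developing brain and vessels, and Zic5 (0.94 and 0.86), a zinc finger regulator. For Pmch they were C1s2 (0.94 and 0.82), a complement protease, Emcn (0.92 and 0.81), a sialomucin of endothelium, and Il13ra1 (0.90 and 0.74), a cytokine receptor chain. For Mchr1 they were Ddx24, Zfp637 and Grina, with r between 0.985 and 0.989, and between 0.963 and 0.985 without the 2 farthest arrays. For Hcrtr1 they were Tmcc2, Gm9962 and Grpel2 by the first probe and Tmem192, Cnbd2 and Eif2b5 by the second, with r between 0.9755 and 0.984, and the lists shared no gene. Without the 2 farthest arrays r was between 0.951 and 0.972 by the first probe and between 0.926 and 0.990 by the second.

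The genes through which the receptors signal did not pass the test either. Of 16 genes of orexin receptor signalling, 15 were tested, 10 had a higher and 5 a lower mean in MS, and the median difference was 0.09 log2. Over all 23424 tested genes 12756 were higher and 10668 lower, with a median of 0.01. Of the list, 0 genes had an unadjusted p under 0.05 in limma, where 1.93% of all genes did. Itpr1, the calcium channel opened by inositol trisphosphate, had a difference of 0.22, and Rgs4, a brake on Gq and Gi signalling, one of 0.32. Prkcd and Prkca, kinases of the protein kinase C family, had differences of -0.26 and -0.19. Control 8.4 was lowest for Itpr1 and Rgs4 and highest for Prkcd and Prkca, and without it the 4 differences were 0.10, 0.16, -0.16 and -0.02. The median of the list was then 0.019.

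All 11 genes of MCH receptor signalling were tested, 8 with a higher and 3 with a lower mean in MS and a median of 0.05, which was -0.01 in the table of the authors. Adcy3, the adenylyl cyclase of neuronal cilia, stood at 0.28 and Gnaq, a Gq alpha subunit that both receptor lists hold, at 0.23. Gnai2, a Gi alpha subunit, and the kinase gene Mapk3 stood at -0.03 and -0.02. Of 12 genes of the neuronal cilium 11 were tested, 9 higher and 2 lower with a median of 0.04. Htr6, the ciliary serotonin receptor, stood at 0.29, and Tulp3, which carries receptors into cilia, and Bbs1, a part of the BBSome, at -0.07 and -0.02. Control 8.4 was lowest for Adcy3, Gnaq, Gnai2 and Htr6, and without it they stood at 0.18, 0.10, -0.11 and 0.07, Mapk3 at -0.07, Tulp3 at 0.01 and Bbs1 at -0.01. None of the genes in both lists had an unadjusted p under 0.05 in limma.

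Genes that orexin or MCH neurons also express did not pass the test. Of 13 such genes 11 were tested, 4 higher and 7 lower in MS with a median of -0.20, and 0 had an unadjusted p under 0.05 in limma. Many of them are used by cortical or striatal cells too. Rfx4, a regulator of ciliated cells, had a difference of 0.14 and Nucb2, the nesfatin precursor, of 0.11. Nts, the neurotensin gene, had one of -0.60 and Slc17a6, a vesicular glutamate transporter of subcortical neurons, of -0.27. Control 8.4 was highest for both, at -0.65 and -0.26, and without it the differences were -0.13 and -0.06, and that of Nucb2 was 0.04. The median of the list was -0.04 without control 8.4, -0.02 with normexp, -0.03 in the table of the authors, and -0.02 without control 8.4, control 8.5 and MS 7.6. Qrfp, a peptide gene of lateral hypothalamic neurons, was well above background on none of the 8 arrays.

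**Figure D5:**
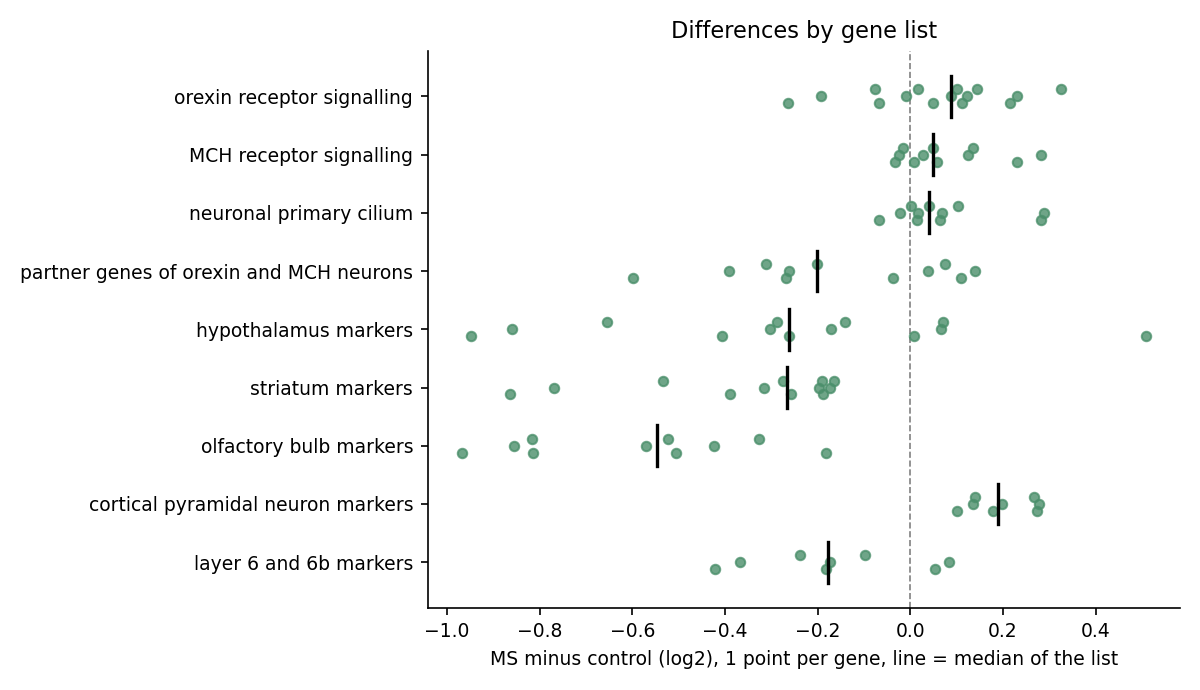
Difference between the group means (MS minus control, log2) of each tested gene, 1 point per gene, by list, with a line at the median. The medians of both receptor signalling lists and of the cilium list lie between 0.04 and 0.09, and those of the hypothalamic, striatal and olfactory bulb lists at -0.26, -0.27 and -0.55. Without control 8.4 these 3 were -0.06, -0.0021 and 0.02.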

How the data were processed

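The mPFC of 8 mice, 4 control and 4 MS, was profiled on 1 Agilent slide with 1 array per animal, from 200 ng of RNA labelled with Cy3. Per the file headers the array design was 28005 on build mm9, whereas the methods of the study name another design number. Signals were extracted by the authors with Agilent Feature Extraction 10.10.1.1 and deposited as scanner files. The deposited processed signal is an intensity already corrected for background and spatial trend, with low values replaced by small surrogates. The deposited series table holds log2 values normalised by the authors. Its 34137 probes include 5 of the member probes, and each column correlated at 0.9999 with the log2 median signal of its own array and had a median of 8.532 or 8.533, without centring per gene. It served as an alternative.

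Of 62976 spots per array 3671 were controls and were left out, as were outlier spots, and replicate spots were averaged per probe. Each log2 processed signal was set against its array's 75th percentile. A probe was tested if every array of either group had it well above background, as flagged by the software. This kept 34073, left out 21608, and among these dropped 23 with a missing value. Two-sided limma tests (version 3.58.1 with statmod 1.5.0, R 4.3.3) were run by lmFit and eBayes without covariates, with Benjamini-Hochberg adjustment at 0.05. Of these, lmFit and the adjustment are those stated by the authors. The fit was tested on simulated data. Python 3.11.15 and matplotlib 3.10.9 drew the figures. Symbols came from RefSeq (GRCm38.p6) for 31381 probes, by accession, name or synonym, while 24300 probes kept the deposited name. Lists used the brightest tested probe of a gene.

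The members, lists and tests were chosen with earlier results of these data known. All 5 members were described with every probe, at most 2 higher and 2 lower genes with the smallest unadjusted p were named per pathway list, and 3 genes were named by likeness per probe. Parpbp was named after its values were seen. The number before the point in the animal labels may mark litters, in which case animals are not fully independent. It was used as a random block, but the estimated correlation was negative, so this does not account for shared litters. The other alternatives were normexp (offset 50), quantile normalisation, both filters on dim probes, the slide row as a block, the mean of the probes of a gene, and leaving out animals. The table of the authors was used as well. The normexp offset shrinks differences of dim probes in every result given with it.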

Additional observations from a re-analysis of the deposited data

Results flagged for a closer look

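Hcrt in MS 7.1 stood apart from its group. Its level of -1.77 log2 was 1.77 above the nearest MS animal, MS 7.6 at -3.55, and this gap took 0.889 of the range of the group, above Dixon's 95% critical value for a set of 4. It was the 1 value so found among 14 sets of 4 animals (7 probes in 2 groups). Chance gives such a value in about 1 in 20 sets, so 1 among 14 is not unusual. Control 8.4 was higher still for Hcrt, at -1.64. Oxt and Avp were also highest of the MS group in this animal, at -1.36 and -1.26.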

How the results depend on the processing

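All 80 values of the 5 tested probes under 16 alternatives kept their direction, and their adjusted p ran from 0.421 to 0.99999. Within single slide rows, which are not among these, Hcrt changed sign. With either filter on dim probes, and with the slide row as a block, the differences of these probes equal the main ones by construction. Their direction was therefore fixed in advance there, and only their p-values could change. An unadjusted p under 0.05 was reached in 7 of the 80. With the number before the point as a random block, 3 member probes (Pmch, Mchr1 and the first of Hcrtr1) had a limma unadjusted p under 0.05. So did 3826 of the 34073 tested probes and 11 genes of the lists. The estimated correlation of this block was -0.22. A negative value means that animals with the same number were not more alike, and it narrows the standard errors of the group difference. These p-values therefore do not account for shared litters. Leaving out 1 animal gave 0 to 2 member probes, 541 to 1647 probes in all, 0 to 5 genes of the lists, and 851 to 2199 probes whose groups did not overlap. With normexp 415 probes had a limma unadjusted p under 0.05, and with the table of the authors 785 probes in all and 1 gene of the lists did. The alternative without control 8.4, control 8.5 and MS 7.6 was chosen after seeing the data. It gave 4260 probes whose groups did not overlap, with fewer animals to overlap, and a median of 0.037 for orexin receptor signalling. In it 3 genes of the lists had a limma unadjusted p under 0.05. The share over all probes is not given for it, so these genes are not read as a result. Leaving out 1 animal put that median between 0.019 (without control 8.4) and 0.113. Without control 8.4 the medians of the hypothalamic, striatal, olfactory bulb, pyramidal and layer 6 lists were -0.06, -0.0021, 0.02, 0.06 and -0.03, and without the 3 animals they were -0.12, 0.05, 0.10, 0.04 and 0.04. With normexp that of the hypothalamic list was -0.06. No alternative called a probe at an adjusted p under 0.05. The cause of these shifts was not tested. Without the filter on dim probes limma gave 0.59 for Hcrtr2 (unadjusted p = 0.228) and -0.51 for the second Hcrt probe (unadjusted p = 0.286). Each probe was well above background on 1 array alone, so these values are not read as folds. For the second Hcrt probe, 1 value in each group was a surrogate. The planned test of Hcrtr2 against Hcrtr1 within animals was not run, since Hcrtr2 was well above background on 1 array. No paired analysis was possible because the groups share no animal numbers.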
